A study of Mus musculus with 12 samples.

Results

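The 8 genes described here encode the beta 2 integrins and a group of adhesion molecules of neutrophils: the integrin subunits Itgb2, Itgal, Itgam and Itgax, the Itgb2 relative Itgb2l, and Cd177, Ceacam1 and Ceacam10. They were chosen by name from 18194 genes that have at least 1 probe set annotated to them alone, with earlier results of these arrays known, and all 8 passed the filter on dim genes that left 12573 genes for testing. They have 20 probe sets annotated to a single symbol, of which 18 passed the same filter. Because the choice rested on measured values, the changes of the 8 genes are given as a description, and no p-value is given for them.

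Leukemia cells of mouse bone marrow came from recipients of the first transplantation round, taken when more than 50% of their white blood cells were CD45.2+, and 12 Affymetrix arrays were run from 7 µg of total RNA each. The 4 groups of 3 arrays were MLL-AF9 leukemia with Rictor wild type, MLL-AF9 leukemia with Rictor deletion (RictorΔ/Δ), MLL-NRIP3 leukemia with Rictor wild type and MLL-NRIP3 leukemia with Rictor deletion. MLL-AF9 and MLL-NRIP3 are fusions of the MLL gene, and Rictor is a subunit of the kinase complex mTORC2. All 4 groups were sorted as K+G– cells, a term the labels do not expand, and the labels give peripheral blood as host tissue beside the bone marrow origin of the cells. The labels do not say how the fusions were introduced, what drove the deletion of Rictor, the age of the mice, or whether the arrays within a group stand for different animals, so the spread between arrays may be technical. The study asked, per its design text, which molecular events follow the loss of Rictor, first in the MLL-AF9 and then in the MLL-NRIP3 model.

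Integrins are pairs of an alpha and a beta subunit that hold leukocytes to other cells and to matrix. Itgb2 encodes the beta 2 chain (CD18), which pairs with Itgal (CD11a) to form LFA-1, with Itgam (CD11b) to form Mac-1 and with Itgax (CD11c) to form p150,95. These receptors are carried by leukocytes, Mac-1 above all by neutrophils and monocytes, and talin and kindlin switch them into the binding state from inside the cell. Cd177 is a glycosylphosphatidylinositol-anchored neutrophil protein that associates with Mac-1 and binds Pecam1. Ceacam1 is an adhesion receptor with inhibitory motifs in its long cytoplasmic tail, and Ceacam10 is a further member of the carcinoembryonic antigen family in the mouse.

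Promoter sequence was looked at because several of the genes changed together, and because Ceacam10 and Cd177 lie next to each other. RefSeq windows (GRCm38.p6) were found for 6 of the 8 genes. The 4 windows below are those of the genes with the largest changes in MLL-AF9 leukemia and of Ceacam1, the relative of Ceacam10. Each holds the 250 bases before an annotated start, 5′ to 3′ on the strand of the gene, for Ceacam10 before the first of its annotated starts. Capitals mark matches on either strand to GAGGAA, an extended core of the sites bound by ETS factors such as PU.1, and to CACGTG, an E-box. The windows are chr7:24760312-24760561 on the minus strand for Cd177, chr7:24776917-24777166 on the plus strand for Ceacam10, chr7:25477626-25477875 on the minus strand for Ceacam1 and chr16:96443615-96443864 on the minus strand for Itgb2l.
Cd177: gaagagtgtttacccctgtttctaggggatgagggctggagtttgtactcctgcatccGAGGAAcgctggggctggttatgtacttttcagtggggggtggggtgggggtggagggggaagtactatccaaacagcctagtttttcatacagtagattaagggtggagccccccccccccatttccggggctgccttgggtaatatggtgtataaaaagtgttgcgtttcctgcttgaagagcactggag
Ceacam10: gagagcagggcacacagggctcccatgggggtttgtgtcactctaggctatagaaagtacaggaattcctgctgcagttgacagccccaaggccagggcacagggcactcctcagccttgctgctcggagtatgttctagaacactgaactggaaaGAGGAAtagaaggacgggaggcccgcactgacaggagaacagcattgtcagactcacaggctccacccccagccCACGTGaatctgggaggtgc
Ceacam1: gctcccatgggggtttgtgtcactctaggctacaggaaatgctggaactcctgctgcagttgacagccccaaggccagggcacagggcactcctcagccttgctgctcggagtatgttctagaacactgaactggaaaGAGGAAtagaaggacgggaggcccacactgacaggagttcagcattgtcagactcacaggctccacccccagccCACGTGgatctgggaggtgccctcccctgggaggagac
Itgb2l: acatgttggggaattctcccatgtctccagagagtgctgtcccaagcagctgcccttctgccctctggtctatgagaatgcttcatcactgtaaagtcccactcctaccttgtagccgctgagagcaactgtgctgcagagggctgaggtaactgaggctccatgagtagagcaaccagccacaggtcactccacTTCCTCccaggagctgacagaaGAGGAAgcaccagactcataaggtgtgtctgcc

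The windows of Ceacam10 and Ceacam1 were nearly the same sequence: over 232 aligned bases 222 were identical (95.7%), with 10 mismatches and no gap. Their CACGTG lay 20 bases before the Ceacam10 start and 38 before that of Ceacam1, and their GAGGAA 94 and 112 bases before. GAGGAA was present in the windows of 5 of the 6 genes (Cd177, Ceacam10, Ceacam1, Itgam and Itgb2l, not Itgax) and in 23.3% of 32851 mouse promoter windows of this length. CACGTG was present in the windows of 2 of them, Ceacam10 and Ceacam1, against 6.02% of all windows. As these 2 windows are nearly the same sequence, their matches to GAGGAA and CACGTG are not independent. TTGCNNAA, a C/EBP-type motif, was in none of the 6 and in 9.56% of all windows, and the TATA-box motif TATAAA was found for Cd177 alone and in 12.4% of all windows. Both strands were searched, and CACGTG reads the same on both. These matches describe letters in a window and show no binding.

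Median intensities of the 6 MLL-AF9 arrays (8.16 to 8.36) and of the 6 MLL-NRIP3 arrays (13.6 to 14.2) differed as if the models had been normalized separately, so levels are compared within a model and levels of the models set side by side are not on one scale. The brightest Rictor probe set read 86.8 and 87.5 in control and deleted MLL-AF9 cells and 113 and 104 in the MLL-NRIP3 cells on average. Dimmer ones differed. In MLL-AF9 cells 1441753_at went from 21.9 to 16.5 and 1429810_at from 30.9 to 25.3 without overlap, and 1453775_at from 8.79 to 11.1 with overlap. In MLL-NRIP3 cells they went from 50.2 to 44.5, 30.0 to 31.7 and 49.7 to 113, all with overlap. The labels do not tell whether any Rictor probe set lies in the deleted part, so these values do not check the deletion. Kit, the receptor of stem cell factor, and Ptprc (CD45) were above the filter in all groups. Kit averaged 195 and 143 in control and deleted MLL-AF9 cells and 341 and 524 in the MLL-NRIP3 cells. Its groups did not overlap in either model, and its log2 changes were −0.39 and 0.58 (limma adjusted p = 0.056 and 0.14). Sex-linked transcripts differed between the MLL-AF9 groups: Xist, which coats the inactive X chromosome, read 2348 to 2441 in controls and 34.3 to 208 in deleted cells, and the Y-linked Eif2s3y 3.43 to 7.81 and 149 to 186, so genotype and sex cannot be told apart in MLL-AF9 leukemia. In MLL-NRIP3 leukemia Xist read 2730 to 3558 in controls and 2509 to 2798 in deleted cells. Eif2s3y read 1.98 to 3.76 and 2.07 to 2.23 there, so these transcripts did not separate the groups of that model. On MLL-NRIP3 control arrays 1 and 2 the hybridization controls averaged 11.2 and 10.6 on the log2 scale, against 9.31 to 9.53 on the other MLL-NRIP3 arrays, and the 5′ to 3′ ratio of Gapdh was 0.562 and 0.738, against 0.881 to 0.965. The values of the 8 genes in this model are therefore given with and without them. Of other genes named as called there, a call that ended without both is named as such. The RNA is that of whole cell populations, in which fewer cells of a type and less RNA per cell cannot be told apart.

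In MLL-AF9 leukemia 6 of the 8 genes were called higher with Rictor deletion and none lower, at a limma adjusted p under 0.05 over all genes tested; 3.8% of all genes were called higher and 4.46% lower (8.26% in either direction), and nothing is read from the difference, since this contrast was known when the genes were chosen. Cd177, Itgb2l and Ceacam10 rose most, 7.36-, 6.29- and 4.19-fold, followed by Itgal (1.82-fold), Ceacam1 (1.73-fold) and Itgam (1.38-fold). Itgb2, the shared beta chain, and Itgax were not called. For 6 of the 8 genes all deleted arrays lay above all controls, as they did for 11.4% of all genes, with 15.7% below. The median log2 change of the 8 genes was 0.83 and that of all genes −0.01. In MLL-NRIP3 leukemia only Itgal of the 8 was called, and it fell 2.60-fold; 1.53% of all genes were called in this contrast, 0.779% higher and 0.748% lower. Deleted arrays lay above all controls for 1 of the 8 genes and below them for 4, against 9.7% and 12.7% of all genes. With 1 fit of all 12 arrays, 5 of the 8 genes were called in MLL-AF9 leukemia, all higher (all genes: 1.4% called, 0.939% higher and 0.461% lower), and 4 in MLL-NRIP3 leukemia, all lower (all genes: 13.8% called, 5.96% higher and 7.83% lower). In earlier work on these data, not shown here, a fit sharing 1 spread between the models made many false calls in simulated MLL-NRIP3 arrays. Whether any of the 4 MLL-NRIP3 calls above is false was not tested. With the arrays of MLL-NRIP3 leukemia alone, the median log2 change of the 8 genes was −0.44 and that of all genes −0.00047. Folds and log2 changes are on the scale of log2(intensity + 16), which understates the changes of dim genes, and errors of log2 changes are standard errors with 3 arrays in each group.

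**Figure D1:**
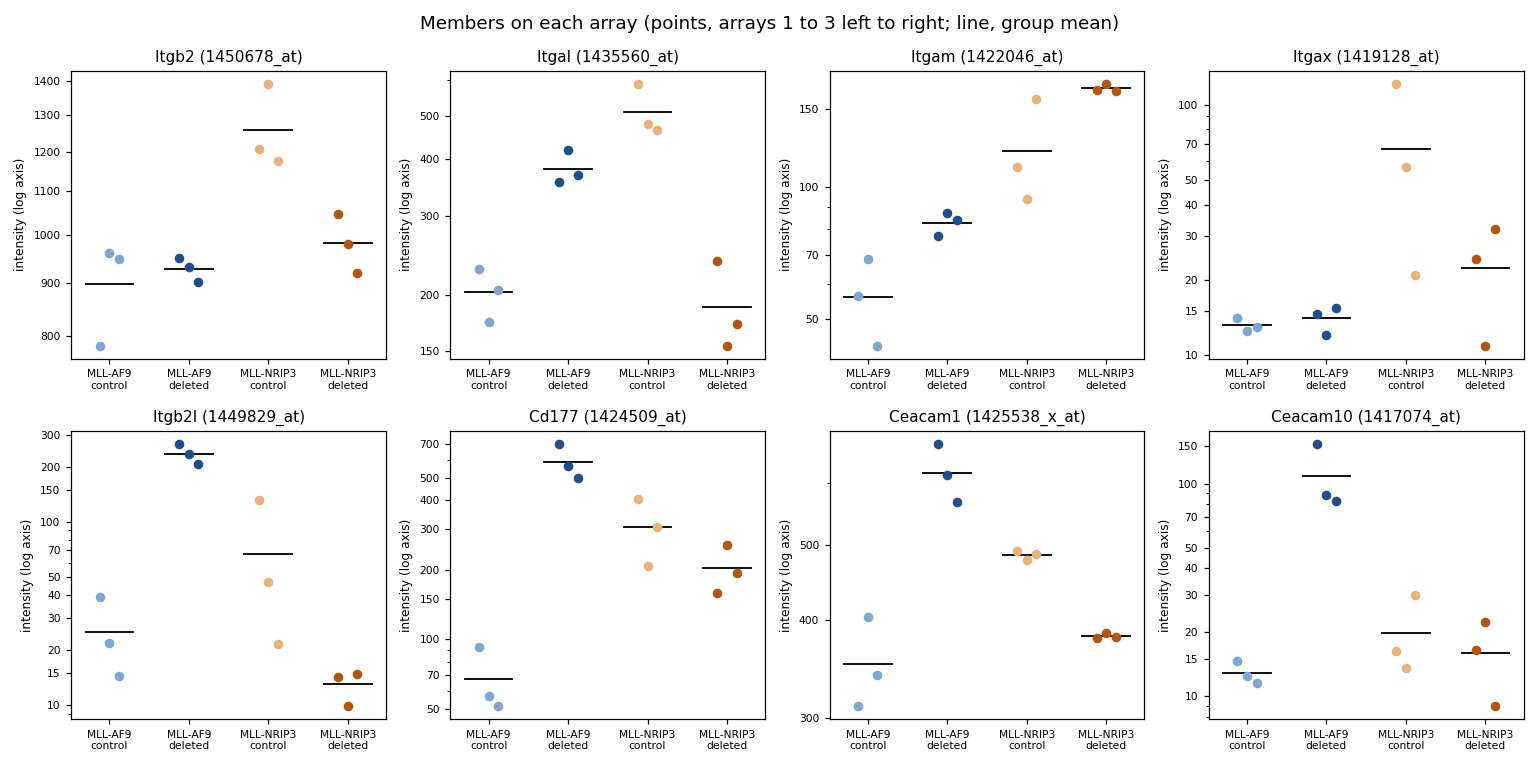
Intensity of the brightest probe set of each gene on each of the 12 arrays, in deposited units on a log axis whose range differs between panels; points are arrays, lines are means of 3. The 3 Rictor-deleted MLL-AF9 arrays lie above their controls for Itgal, Itgam, Itgb2l, Cd177, Ceacam1 and Ceacam10, while in MLL-NRIP3 leukemia the deleted arrays lie above the controls for Itgam alone.

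Among the alpha chains, Itgal (1435560_at, chromosome 7) read 229, 174 and 205 on MLL-AF9 control arrays and 356, 419 and 369 on the Rictor-deleted arrays. All deleted arrays were above all controls, and the log2 change was 0.87 ± 0.09. In MLL-NRIP3 leukemia Itgal went the other way: it read 588, 480 and 463 in controls and 238, 154 and 173 in deleted cells. The groups again did not overlap, and the log2 change was −1.38 ± 0.18. This call ended without control array 2 (log2 change −1.42) and without control arrays 1 and 2 (−1.25), and the size changed little. A second Itgal probe set, 1425367_at, was dim, with a mean of 8.22 and 9.47 in control and deleted MLL-AF9 cells and of 27.2 and 18.2 in MLL-NRIP3 cells.

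Itgam (1422046_at, chromosome 7), the alpha chain of Mac-1 and the CD11b of myeloid sorting panels, read 56.6, 68.5 and 43.5 in MLL-AF9 controls, against 77.1, 87.0 and 84.0 in deleted cells. The deleted arrays were higher without overlap, with a log2 change of 0.46 ± 0.12, but the call held in only 10 of 18 alternative settings and ended in the fit of all 12 arrays and without any 1 array except control array 2. In MLL-NRIP3 leukemia Itgam read 111, 93.6 and 158 in controls and 166, 172 and 165 in deleted cells. Here too all deleted arrays were above the controls, the log2 change was 0.45 ± 0.18, and the gene was not called. With control array 3 as the only control, the difference shrank to 0.07, and without 1 array it lay between 0.30 and 0.64. Itgam was thus the single gene of the 8 with a positive change in both models, and it was apart from Itgal, whose changes had opposite signs.

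Itgax (1419128_at, chromosome 7), the alpha chain best known from dendritic cells, was near the bottom of the measured range in MLL-AF9 leukemia, at 14.1, 12.6 and 13 in controls and 14.7, 12.1 and 15.5 in deleted cells. The groups overlapped and the log2 change was 0.04 ± 0.06. In MLL-NRIP3 leukemia the 3 controls were spread over 121, 56.8 and 21.0, and the deleted arrays read 24.2, 10.9 and 32.1. The log2 change was −0.94 ± 0.42 with overlapping groups and no call. The high controls were arrays 1 and 2, the ones with high hybridization signal, and without them the change was 0.01. Without 1 array it lay between −1.42 (control array 3) and −0.48 (control array 1). The summed intensity of a dendritic cell and MHC class II list ranged from 1893 to 3068 in MLL-NRIP3 controls and from 1451 to 1749 in deleted cells, with 14 of 19 listed genes tested and the dendritic cell marker Xcr1 below the filter; its part in the Itgax values was not tested.

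Itgb2 (1450678_at, chromosome 10), the beta chain shared by all of these receptors, was bright. It read 784, 960 and 949 in MLL-AF9 controls, against 951, 932 and 902 in deleted cells, with overlapping groups and a log2 change of 0.05 ± 0.07. In MLL-NRIP3 leukemia it read 1207, 1392 and 1175 in controls and 1046, 980 and 920 in deleted cells. All deleted arrays were below all controls, with a log2 change of −0.35 ± 0.10 that was not called, or −0.26 without control arrays 1 and 2.

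Itgb2l (chromosome 16) encodes a relative of the beta 2 chain found in neutrophils. Its brightest probe set, 1449829_at, read 39.0, 22.0 and 14.5 in MLL-AF9 controls, against 266, 235 and 208 in deleted cells. The deleted mean was 9.39 times the control mean, and the log2 change was 2.65 ± 0.17, the change of rank 10 by size among all genes tested. In MLL-NRIP3 leukemia the controls read 131, 47.2 and 21.5 and the deleted arrays 14.2, 9.91 and 14.9. All deleted arrays were lower, but the controls were far apart, and the log2 change of −1.28 ± 0.41 was not called. Without control arrays 1 and 2 it was −0.38, and without 1 array it lay between −1.74 (control array 3) and −0.75 (control array 1). Itgb2l therefore showed the widest contrast between the beta genes of the 2 kinds: in the same MLL-AF9 cells in which Itgb2l rose, Itgb2 overlapped between the groups. The other Itgb2l probe sets did not follow: 1433053_at lay between 9.88 and 17.1 and 1433054_at between 4.68 and 8.30 over the 12 arrays, and the latter did not pass the filter.

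Cd177 (1424509_at, chromosome 7), the surface protein that accompanies Mac-1, read 92.9, 56.8 and 51.5 in MLL-AF9 controls, against 701, 561 and 499 in deleted cells. The lowest deleted array was far above the highest control, and the mean was 8.75 times that of controls. The log2 change of 2.88 ± 0.16 had rank 6 by size among all genes tested. In MLL-NRIP3 leukemia Cd177 read 404, 209 and 307 in controls and 159, 256 and 194 in deleted cells. These groups overlapped, and the log2 change was −0.53 ± 0.25 without a call, or −0.58 without control arrays 1 and 2. Without 1 array it lay between −0.77 (control array 2) and −0.32 (control array 1).

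Ceacam10 (1417074_at, chromosome 7) read 14.6, 12.4 and 11.5 in MLL-AF9 controls, against 154, 88.8 and 82.7 in deleted cells. The deleted mean was 8.44 times the control mean, and the log2 change was 2.07 ± 0.17, of rank 19 by size. Its second probe set, 1448573_a_at, went from a mean of 9.47 to 67.6 (log2 change 1.69), and the third, 1436565_at, was at most 5.91 on any array and did not pass the filter. In MLL-NRIP3 leukemia Ceacam10 read 16.2, 13.5 and 30.0 in controls and 16.5, 22.3 and 8.99 in deleted cells. The groups overlapped, at a low level, and the log2 change was −0.16 ± 0.19, or −0.55 without control arrays 1 and 2. Without 1 array it lay between −0.31 (deleted array 2) and 0.03 (control array 3), so its sign differed between these settings.

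Ceacam1 (1425538_x_at, chromosome 7) was bright in all groups. It read 311, 404 and 340 in MLL-AF9 controls, against 672, 614 and 567 in deleted cells, without overlap and with a log2 change of 0.79 ± 0.09. In MLL-NRIP3 leukemia the arrays of each group were close to each other, at 490, 478 and 486 in controls and 380, 385 and 381 in deleted cells. The deleted arrays were lower without overlap, the log2 change was −0.33 ± 0.10 (−0.34 without control arrays 1 and 2), and the gene was not called. Across its 8 probe sets the log2 change lay between 0.09 and 0.79 in MLL-AF9 leukemia, with the deleted arrays above the controls in 7 of 8. It lay between −0.36 and −0.09 in MLL-NRIP3 leukemia, with the deleted arrays below the controls in 3 of 8. Those 3 were 1425538_x_at, 1450494_x_at and 1427630_x_at. The others overlapped there, among them 1452532_x_at (−0.09), 1460681_at (−0.10) and 1427712_at (−0.11). Ceacam1 and Ceacam10 thus differed in size of response in MLL-AF9 leukemia while their windows before the start were nearly identical.

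**Figure D2:**
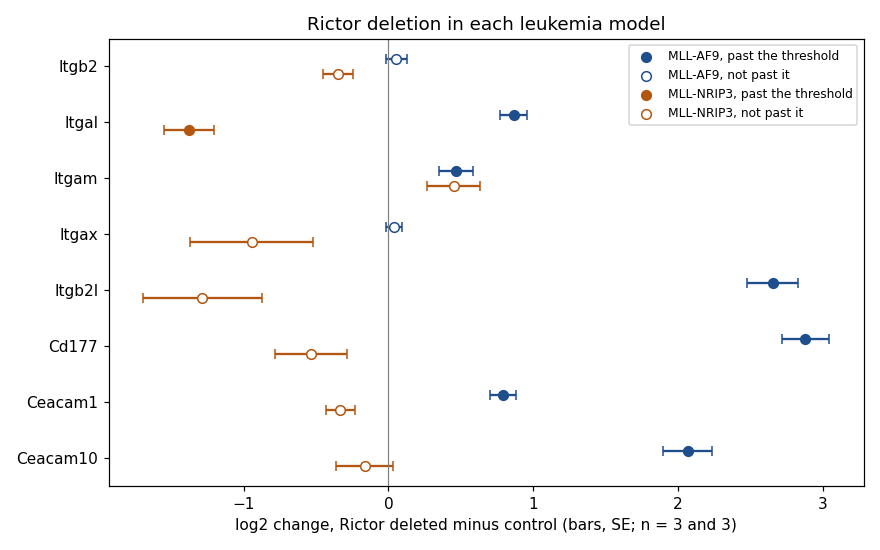
Log2 change of each gene with Rictor deletion (deleted minus control, x axis) in MLL-AF9 (blue) and MLL-NRIP3 leukemia (orange), with standard errors from limma and 3 arrays in each group; filled points passed an adjusted p of 0.05. In MLL-AF9 leukemia 6 points are filled, all to the right of 0, and in MLL-NRIP3 leukemia only Itgal is filled, at −1.38.

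Over the 20 probe sets, the deleted MLL-AF9 arrays were above the controls in 13, below in 0 and overlapping in 7; over all 34958 probe sets with a single symbol they were above in 9.37% and below in 11%. In MLL-NRIP3 leukemia they were above in 1, below in 7 and overlapping in 12, against 8.16% above and 10.5% below over all probe sets. Probe sets of a gene share its transcript and are not independent.

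**Figure D3:**
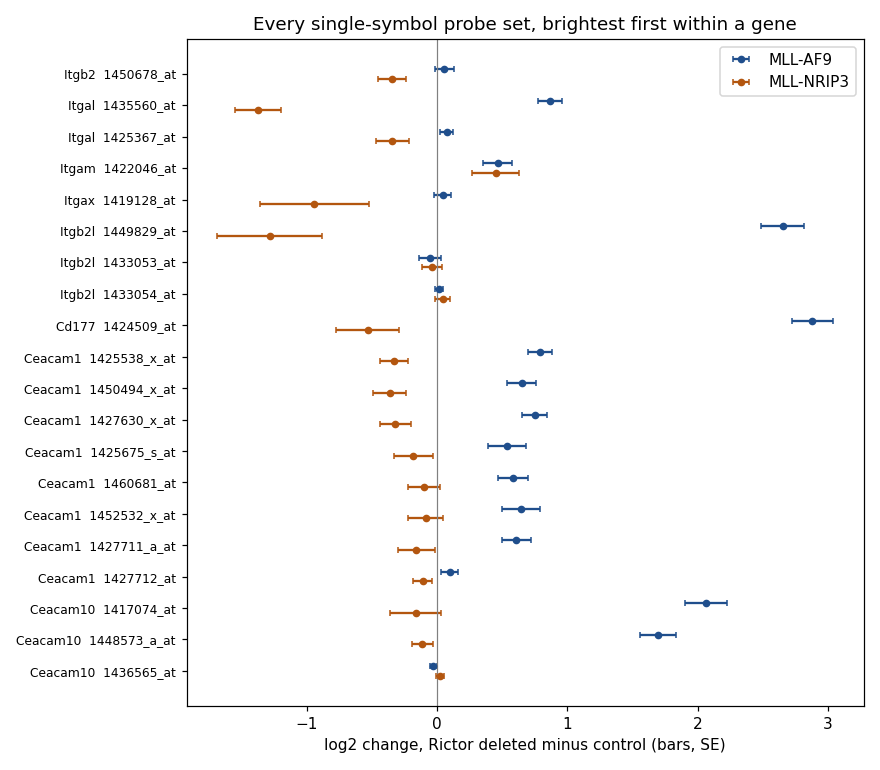
Log2 change (deleted minus control, x axis, with standard errors) of the 20 single-symbol probe sets, grouped by gene with the brightest first, in MLL-AF9 (blue) and MLL-NRIP3 leukemia (orange). The 8 Ceacam1 probe sets lie between 0.09 and 0.79 in MLL-AF9 leukemia, whereas only 1 of the 3 Itgb2l probe sets departs from 0.

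The responses of the 2 models were compared in a fit of all 12 arrays, as the log2 change in MLL-NRIP3 minus that in MLL-AF9 leukemia. This fit shares 1 spread between the models, although their spreads were known to differ, and its calls and standard errors carry that limit. The difference was called for 5 of the 8 genes, all with a lower response in MLL-NRIP3 leukemia; 4.29% of all genes were called, 2.37% in this direction and 1.92% in the other. It was −3.94 ± 0.52 for Itgb2l, −3.41 ± 0.34 for Cd177, −2.24 ± 0.21 for Itgal, −2.23 ± 0.31 for Ceacam10 and −1.12 ± 0.13 for Ceacam1. It was not called for Itgax (−0.98 ± 0.49), Itgb2 (−0.40 ± 0.13) or Itgam (−0.01 ± 0.23). Without MLL-NRIP3 control arrays 1 and 2 the 5 values were −3.03, −3.46, −2.12, −2.61 and −1.13 in the same order, and each was still called. The median difference was −1.68 for the 8 genes and 0.01 for all genes. Sex-linked transcripts separated the groups in MLL-AF9 leukemia but not in MLL-NRIP3 leukemia, as described above. Genotype and sex cannot be told apart in the former, and the difference of the responses shares that limit. The genes were chosen with earlier results of these arrays known, so nothing is read from the share called.

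Ordered by group mean, with the reservation that the models are not on one scale, the genes fell into different orders. Itgb2l, Cd177, Ceacam1 and Ceacam10 were highest in Rictor-deleted MLL-AF9 cells, with means of 236 ± 29.1, 587 ± 103, 618 ± 52.8 and 108 ± 39.3 (SD, n = 3 each), and next in MLL-NRIP3 controls, at 66.7 ± 57.5, 306 ± 97.6, 485 ± 5.92 and 19.9 ± 8.82. Itgb2, Itgal and Itgax were highest in MLL-NRIP3 controls, at 1258 ± 117, 510 ± 67.6 and 66.4 ± 50.9. Itgam was highest in Rictor-deleted MLL-NRIP3 cells, at 168 ± 3.54, followed by their controls (121 ± 33.6), deleted MLL-AF9 cells (82.7 ± 5.07) and MLL-AF9 controls (56.2 ± 12.5), and the arrays of neighbouring groups in this order did not overlap. For the other genes some neighbours did overlap: deleted and control MLL-NRIP3 cells for Cd177, Ceacam10 and Itgax, MLL-AF9 controls and deleted MLL-NRIP3 cells for Itgal, Itgb2l and Ceacam1, both MLL-AF9 groups for Itgb2 and Itgax, the deleted groups of both models for Itgb2 and Itgax, both control groups for Itgb2l, and MLL-AF9 controls and deleted MLL-NRIP3 cells for Ceacam10 as well.

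After each model's mean was taken off, Cd177 and Ceacam10 had a Pearson r of 0.95 over the 12 arrays, Itgb2l and Cd177 0.91 and Cd177 and Ceacam1 0.90, while Itgam and Itgax had −0.58. These values are descriptions, since the arrays share the contrast by which the genes were chosen. Among all genes tested, those most like Cd177 were Chil1 (r = 0.98), Lcn2 (0.98), which encodes the granule protein lipocalin 2, and Orm1 (0.97). Those most like Itgb2l were Cd300lf, the formyl peptide receptor gene Fpr2 and Gpr84, each at 0.99. Ceacam10 was most like Clec5a (0.96), Orm1 (0.95) and Cd177 (0.95), and Ceacam1 like G0s2 (0.97), Dennd11 (0.96) and Prom1 (0.94). Itgal was most like Dok2 (0.96), Aak1 (0.95) and Stfa2l1 (0.94). The lists of the others named different genes: Coq7 (0.96), Tmem185a (0.95) and Spc25 (0.95) for Itgam, Ifi47 (0.99), Tmem252 (0.98) and Hdac11 (0.97) for Itgax, and Pxn (0.95), Rnf146 (0.94) and Sh2b1 (0.93) for Itgb2. Pxn encodes paxillin, an adaptor of integrin adhesion sites.

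By gene order in RefSeq (GRCm38.p6), Cd177 and Ceacam10 are immediate neighbours on chromosome 7, on opposite strands. The next tested genes on the Ceacam10 side, Rps19 and Cd79a, had log2 changes of −0.08 and 0.25 in MLL-AF9 leukemia and were not called. Itgam and Itgax are immediate neighbours too, and Ceacam1 lies beside Ceacam2, whose log2 change was −0.02 in MLL-AF9 and 0.00 in MLL-NRIP3 leukemia. Of 60 protein-coding genes within 5 places of the 8 genes, themselves left out, 34 were tested, and 2 were called in MLL-AF9 leukemia (9130023H24Rik near Itgam, log2 change 0.30, limma adjusted p = 0.039, and Bckdha near Ceacam1, −0.36, 0.012) and 0 in MLL-NRIP3 leukemia.

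Mature neutrophil genes were counted as a list, chosen with earlier results of these data known. Of 31 genes listed, 28 had a probe set and all 28 were tested. In MLL-AF9 leukemia 23 were called higher and 0 lower (median log2 change 1.15), against 3.8% and 4.46% of all genes. In MLL-NRIP3 leukemia 1 was called higher and 6 lower (median −0.63), against 0.779% and 0.748% of all genes. The log2 change was positive for 27 of the 28 in MLL-AF9 leukemia and for 5 in MLL-NRIP3 leukemia. In these list counts, rose and fell stand for genes called. Of 7 defining markers, 5 had a probe set and none was below the filter. The summed intensity of the list was 22479, 19639 and 17495 in MLL-AF9 controls, against 48522, 45314 and 44530 in deleted cells. In MLL-NRIP3 leukemia it was 34410, 20642 and 16981 in controls and 11260, 14728 and 15788 in deleted cells, so that control array 1 stood highest, as it did for Itgb2l, Itgax, Itgal and Cd177. Stfa2l1, a stefin, changed by 2.72 ± 0.12 on the log2 scale in MLL-AF9 leukemia (limma adjusted p = 4e-07) and by −2.87 ± 0.45 in MLL-NRIP3 leukemia (0.026). Lcn2 rose by 2.30 ± 0.11 (5.4e-07), S100a8, a calprotectin subunit, by 1.03 ± 0.07 (4.9e-06) and Mgst2 by 2.65 ± 0.19 (9.3e-06) in MLL-AF9 leukemia. In MLL-NRIP3 leukemia S100a8 fell by 2.34 ± 0.40 (0.033), Lcn2 had −0.64 ± 0.28 (0.29) and Mgst2 −1.45 ± 0.32 (0.071). The number of MLL-NRIP3 calls in the list changed with the arrays used: without 1 array it lay between 0 (deleted array 1) and 16 (control array 3). The call of Stfa2l1 ended without control array 2 or any deleted array, while its log2 change without 1 array stayed between −3.33 and −2.29. That of S100a8 ended without any 1 array except control array 3, while its log2 change stayed between −2.87 and −1.88. In the fit of all 12 arrays 12 genes of the list rose and 0 fell in MLL-AF9 leukemia, where S100a8 was no longer called (limma adjusted p = 0.26), and 1 rose and 12 fell in MLL-NRIP3 leukemia. The part of neutrophil RNA in the changes of the 8 genes was not tested.

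**Figure D4:**
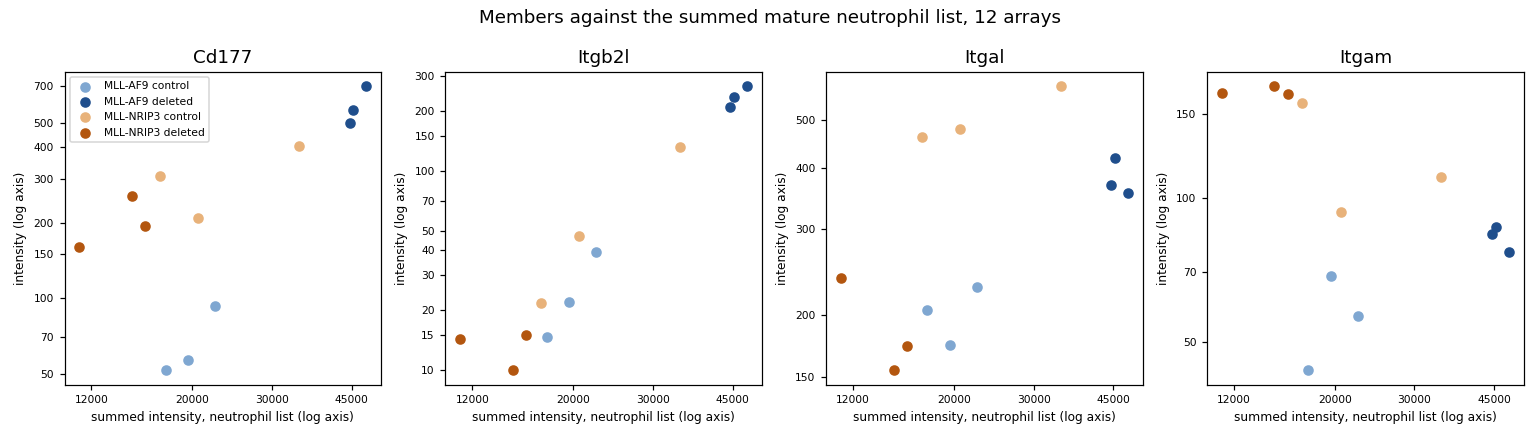
Intensity of Cd177, Itgb2l, Itgal and Itgam (y axes, log) against the summed intensity of 28 mature neutrophil genes (x axis, log) on each of the 12 arrays, coloured by group. The deleted MLL-AF9 arrays stand at the right, between 44530 and 48522, and are highest for Cd177 and Itgb2l, whereas Itgam is highest on the deleted MLL-NRIP3 arrays at the left. The models are not on one scale on either axis, so positions can be compared only within a model.

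Genes of earlier granulocytes and of other cells were counted in the same way, to be set beside the same shares over all genes. Of 12 tested primary granule genes, 8 rose and 0 fell in MLL-AF9 leukemia, among them Fcnb (log2 change 2.23 ± 0.09, limma adjusted p = 2.9e-07), Ms4a3 (1.28 ± 0.12, 5.4e-05), Serpinb1a (0.50 ± 0.05, 0.0002) and Elane, neutrophil elastase (0.68 ± 0.09, 0.00074), and none was called in MLL-NRIP3 leukemia. Of 18 tested monocyte and macrophage genes, 1 rose in MLL-AF9 leukemia, the lysozyme gene Lyz2 (1.21 ± 0.11, 4.3e-05), and 8 fell, among them the mannose receptor Mrc1 (−0.58 ± 0.06, 0.00022), the complement gene C1qc (−0.83 ± 0.11, 0.00068) and Cd163 (−0.37 ± 0.05, 0.00079); none was called in MLL-NRIP3 leukemia. Of 8 tested eosinophil, mast cell and basophil genes 5 fell in MLL-AF9 leukemia, and in MLL-NRIP3 leukemia 1 rose, the mast cell protease Cpa3 (2.69 ± 0.51, 0.046). Of 14 tested dendritic cell genes 4 fell in MLL-AF9 leukemia and 1 rose in MLL-NRIP3 leukemia, the lectin gene Clec10a (1.08 ± 0.19, 0.033). Of 9 tested B lineage genes 3 fell in MLL-AF9 leukemia and 1 in MLL-NRIP3 leukemia, the IgM heavy chain gene Ighm (−3.09 ± 0.53, 0.033). Each of these 3 MLL-NRIP3 calls ended without control arrays 1 and 2 together and without any of at least 4 single arrays, with limma adjusted p up to 0.15, 0.12 and 0.12. Of 6 tested genes of a list for the sorted leukemia cells, 3 fell in MLL-AF9 leukemia (median log2 change −0.40). In MLL-NRIP3 leukemia 1 of them, Cd34, rose (median 0.48), a call that ended without any 1 of 3 arrays and without control arrays 1 and 2 together. In the fit of all 12 arrays 0 genes of that list rose and 0 fell in MLL-AF9 leukemia, and 4 rose and 1 fell in MLL-NRIP3 leukemia. None of 8 tested T and NK cell genes was called in either model, and the sum of that list was at most 239, with Ncr1 and Gzma below the filter. Fitted on all 12 arrays, 3 primary granule genes rose in MLL-AF9 leukemia, and Fcnb (limma adjusted p = 0.057) and Elane (0.24) were not called. In that fit 5 monocyte and macrophage genes fell and 0 rose there, and Lyz2 (limma adjusted p = 0.074) and Cd163 (0.34) were not called. Of the eosinophil, mast cell and basophil genes 3 fell in MLL-AF9 leukemia in that fit, of the dendritic cell genes 2 and of the B lineage genes 1. Whether other cells carry part of the values of the 8 genes was not tested.

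Partners and ligands of these receptors were counted next. Of 15 tested (19 listed), 1 rose and 2 fell in MLL-AF9 leukemia and 2 fell in MLL-NRIP3 leukemia, with median log2 changes of −0.01 and −0.10. In the fit of all 12 arrays 0 rose and 0 fell in MLL-AF9 leukemia, and 0 rose and 3 fell in MLL-NRIP3 leukemia. Pecam1, an endothelial and leukocyte adhesion molecule bound by Cd177, fell in both models, by 0.65 ± 0.14 (limma adjusted p = 0.015), with means of 81.5 and 46.7, and by 1.53 ± 0.27 (0.033), with means of 146 and 38.6. Its call in MLL-AF9 leukemia ended in the fit of all 12 arrays (limma adjusted p = 0.35). Its call in MLL-NRIP3 leukemia ended without any 1 array except control array 3 (adjusted p up to 0.12) and without control arrays 1 and 2 together. Icam2, a ligand of LFA-1, fell by 0.28 ± 0.06 in MLL-AF9 leukemia (0.011), a call that ended without deleted array 2 (0.059), and Plaur, the urokinase receptor that associates with Mac-1, rose by 0.38 ± 0.10 (0.037), a call that ended without any 1 array except control array 2. Ager, a receptor that binds Mac-1, fell by 1.19 ± 0.13 in MLL-NRIP3 leukemia (0.0066). That call ended only without control arrays 1 and 2 together.

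Of 29 tested genes (34 listed) of the machinery that activates integrins, 3 rose and 0 fell in MLL-AF9 leukemia, where 8.26% of all genes were called, with a median log2 change of 0.01. In the fit of all 12 arrays 2 rose and 0 fell in MLL-AF9 leukemia, and 1 rose and 7 fell in MLL-NRIP3 leukemia. Actn1, which encodes the actin cross-linker alpha-actinin, went from 63.2 ± 14.8 to 320 ± 39.7 (SD, n = 3 each), a log2 change of 2.09 ± 0.13 (limma adjusted p = 3.1e-06). Fgr, a Src family kinase downstream of beta 2 integrins, changed by 1.21 ± 0.13 (0.0002) and Vcl, which encodes vinculin, by 0.73 ± 0.08 (0.00034). In MLL-NRIP3 leukemia these 3 genes had 0.14 ± 0.32, −0.21 ± 0.18 and −0.44 ± 0.22 and were not called. With the arrays of MLL-NRIP3 leukemia alone 1 gene fell, Rassf5 (RAPL), a Rap1 effector that binds the LFA-1 alpha chain, by 0.82 ± 0.14 (0.030), with a list median of −0.16; its call ended without control array 1 or 2, deleted array 1 or 2, or both of these controls.

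Other integrin subunits went lower or were not called in MLL-AF9 leukemia. Of 15 tested (21 listed), 0 rose and 5 fell there: Itgb5 by 0.57 ± 0.07 (limma adjusted p = 0.00064), Itgb7 by 0.76 ± 0.13 (0.0052), Itga1 by 0.77 ± 0.14 (0.0068), Itga2b by 0.33 ± 0.08 (0.034) and Itgb3 by 0.58 ± 0.15 (0.036). The calls of Itga2b and Itgb3 ended without any 1 of the 6 arrays and without any 1 of 4, respectively, and none of the 5 was called in the fit of all 12 arrays. In MLL-NRIP3 leukemia 1 rose, Itga2b, the platelet integrin chain, by 1.18 ± 0.15 (0.011), from a mean of 42.6 to 117, a call that ended without control array 2 (0.058) and without control arrays 1 and 2 together. Of 10 tested selectin and rolling ligand genes (12 listed), 3 fell in MLL-AF9 leukemia, Selplg, the ligand of P-selectin, by 0.29 ± 0.05 (0.0056), Gcnt1, a branching enzyme of its glycans, by 0.45 ± 0.09 (0.0095), and Fut4, a fucosyltransferase, by 0.38 ± 0.09 (0.023), and 0 rose; none was called in MLL-NRIP3 leukemia. The call of Fut4 ended without control array 2 or any deleted array (limma adjusted p up to 0.093). In the fit of all 12 arrays 0 of the selectin and rolling ligand genes rose and 0 fell in MLL-AF9 leukemia, and 0 rose and 1 fell in MLL-NRIP3 leukemia.

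Of 15 other Ceacam genes and genes of Ceacam signalling, 6 were tested and none was called in either model by limma. The lowest unadjusted p among them belonged to Ceacam18, at a mean of 16.6 and 22.4 in MLL-NRIP3 controls and deleted cells, and Ptpn6, the phosphatase SHP-1 recruited by Ceacam1, had log2 changes of 0.07 ± 0.05 and 0.10 ± 0.19. Of 19 tested myeloid regulators (20 listed), 2 rose and 2 fell in MLL-AF9 leukemia. Cebpd, a C/EBP factor, rose by 0.43 ± 0.08 (limma adjusted p = 0.0055) and Id2 by 0.63 ± 0.14 (0.018), while Myb, a factor of immature cells, fell by 0.27 ± 0.05 (0.0093) and Irf8 by 0.39 ± 0.11 (0.044). Runx1 rose in MLL-NRIP3 leukemia by 0.76 ± 0.14 (0.042), a call that ended without any 1 array except control array 3 and without control arrays 1 and 2 together. The calls of Id2 ended without control array 3 or deleted array 1, and those of Irf8 without any 1 of 4 arrays. In the fit of all 12 arrays 1 regulator, Cebpd, rose and 0 fell in MLL-AF9 leukemia, and 4 rose and 3 fell in MLL-NRIP3 leukemia.

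**Figure D5:**
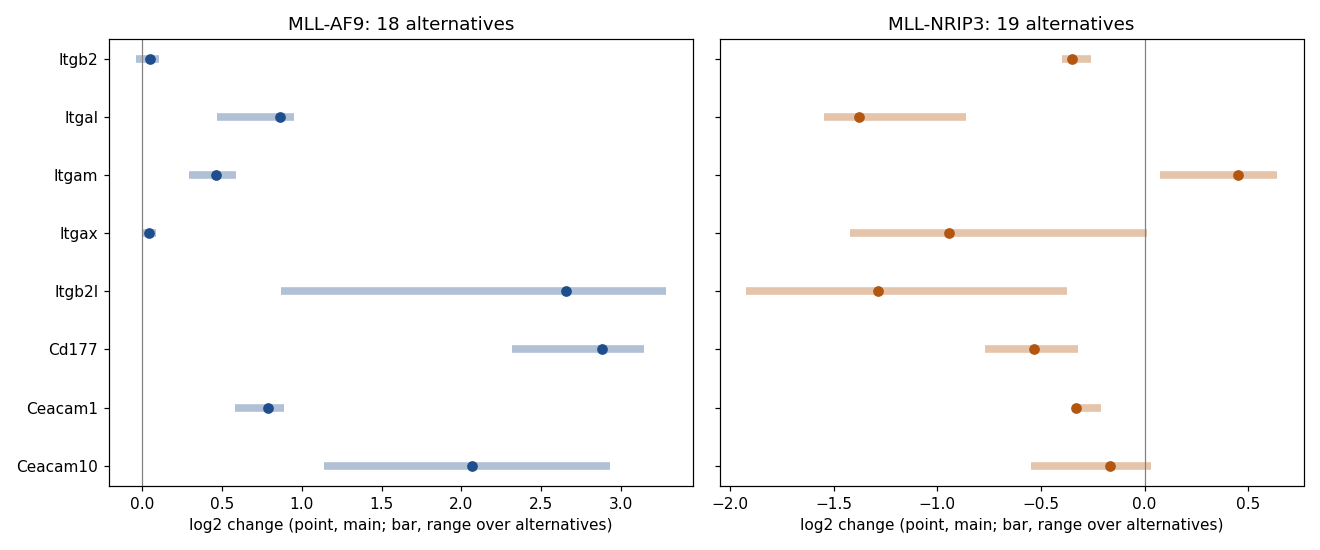
Log2 change of each gene (point) with its range over 18 alternative settings in MLL-AF9 leukemia (left) and 19 in MLL-NRIP3 leukemia (right). The bars of Itgal, Itgam, Itgb2l, Cd177, Ceacam1 and Ceacam10 stay above 0 on the left, and the bar of Itgax reaches from −1.42 to 0.01 on the right.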

How the data were processed

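The authors deposited linear intensities, 1 per probe set and array, for 45101 probe sets on 12 arrays; how probes were summarised, corrected and normalized is not stated in the labels or the file. Probe sets were named from the platform annotation: 34958 had 1 symbol, 932 several and 9211 none, and only the first were used. A gene was read from its brightest probe set, and a gene had to reach a mean of 7.70, which is the 40th percentile over every probe set. Values were tested as log2(intensity + 16) with limma 3.58.1 in R 4.3.3 (lmFit, eBayes with trend), 2-sided, adjusted by the Benjamini-Hochberg method over 12573 genes. Deletion was fitted on the 6 arrays of each model (4 residual degrees of freedom), the difference of the responses on all 12 (8 degrees). The script was tested on simulated data. Motifs and alignments used Biopython 1.88; tables were made in pandas 2.3.3 under Python 3.11.15, plots in matplotlib 3.10.9.

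The 8 genes and all lists were chosen with earlier results of these data known. Named besides were Rictor, Kit, Ptprc, Xist and Eif2s3y, up to 4 genes of each list with the smallest p in either model, and for each member the 3 genes with the highest r, without predicted genes. Further names (Itgb3, Fut4, Irf8, Cpa3, Clec10a, Ighm, Ncr1, Gzma, Xcr1 and the neighbours) were chosen after their values were seen, to complete counts. Alternatives were other normalizations, filters, pseudocounts, probe set rules, moderations, array weights, a replicate block, thresholds and leaving out arrays. The number of arrays limits the precision.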

Additional observations from a re-analysis of the deposited data

Results flagged for a closer look

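For 5 of the 8 genes, the response to Rictor deletion differed between the models in the interaction term of limma (MLL-NRIP3 minus MLL-AF9, log2 scale): −3.94 for Itgb2l, −3.41 for Cd177, −2.24 for Itgal, −2.23 for Ceacam10 and −1.12 for Ceacam1. Each was called in the fit and in all 24 alternatives that gave it a value. The genes were chosen with earlier results of these arrays known, and the alternatives rework the same values. The calls are therefore a description. The fit behind them shares 1 spread between the models, although their spreads were known to differ. Genotype and sex cannot be told apart in MLL-AF9 leukemia, which limits these differences too. By the brightest probe set of each gene, the 3 deleted arrays of Itgal stood above the controls in MLL-AF9 leukemia and below them in MLL-NRIP3 leukemia. The same held for Itgb2l and Ceacam1. For Cd177 and Ceacam10 the MLL-NRIP3 groups overlapped.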

How the results depend on the processing

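The number of members called stayed within 1.5 times the main count in all 20 alternatives in MLL-AF9 leukemia and in all 26 for the difference of the responses, but in 15 of 21 in MLL-NRIP3 leukemia. There the main count of 1 became 4 in the fit of all 12 arrays (Itgal, Itgb2, Itgb2l and Ceacam1, all lower), 6 with array weights (1 higher, 5 lower), 0 without control arrays 1 and 2, and 0 at an adjusted p under 0.01. Without 1 array it lay between 0 (control array 2) and 4 (control array 3: Itgal, Itgax and Itgb2l lower, Itgam higher). The cause of these shifts was not tested on the measured arrays. Each model was given its own fit because the spread between replicates was known to differ between the models. A fit sharing 1 spread had made many false calls in simulated MLL-NRIP3 arrays, in earlier work whose values are not given here. In the fit of all 12 arrays 5 members were called in MLL-AF9 leukemia, without Itgam, when 1.4% of all genes were called, and 13.8% of all genes in MLL-NRIP3 leukemia. Genes of the 6 pathway lists called numbered 18 in MLL-AF9 leukemia with the arrays of that model alone and 3 in that fit (Actn1, Fgr and Cebpd). In MLL-NRIP3 leukemia they numbered 5 (2 higher, 3 lower) with its own arrays, 21 in that fit (7 higher, 14 lower), 33 with array weights (13 higher, 20 lower) and 0 without control arrays 1 and 2.

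Arrays with the same number did not deviate together, with correlations of −0.10, −0.05 and 0.02 in MLL-AF9 and 0.06, −0.14 and −0.05 in MLL-NRIP3 leukemia, so the numbers were not taken as pairs; with the replicate number as a block, 6, 1 and 5 members were called in MLL-AF9 leukemia, MLL-NRIP3 leukemia and for the difference, as in the main fits. The log2 change of Itgb2l in MLL-AF9 leukemia was 0.87 as a mean of its 3 probe sets and 3.28 with a pseudocount of 1, and that of Ceacam10 1.24 and 2.93. Itgax in MLL-AF9 leukemia, Itgb2l in MLL-AF9 controls and Ceacam10 outside deleted MLL-AF9 cells lay near the pseudocount of 16, which limits their folds.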

Other observations

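Probe sets annotated to both Ceacam2 and Ceacam1, left out of the counts because they name no single gene, had log2 changes with Rictor deletion of 0.55 (1422123_s_at) and 0.63 (1460682_s_at) in MLL-AF9 leukemia and of −0.20 and −0.18 in MLL-NRIP3 leukemia. The single-symbol Ceacam2 probe set had −0.02 and 0.00.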
